A study of Mus musculus with 18 samples.

Results

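The 10 genes described here are those whose RNA level followed that of Gsta4 most closely in mouse retinal pigment epithelium (RPE) libraries made without OSK. They are Ptbp3, Cmas, Upk3bl, Perp, Kctd5, S100a16, Pyroxd1, Psd4, Pabpc1 and S100a10, and they make up 10 of the 21859 rows of the count table. Each has 1 row in the table, and all 10 were among the 15944 genes that passed the filter on low counts. The genes were selected on measured values, namely Pearson's r between each gene's log2 CPM and that of Gsta4 over 14 libraries, after each group's mean had been taken off. CPM is the count scaled to library size, as edgeR's cpm function gives it. Everything those 14 libraries show about the 10 genes is therefore given as a description with no test. Tests are kept for questions about the OSK libraries, which the choice did not use. The control libraries they are compared with are among the 14, and the spread in the tests is estimated from all 18 libraries.

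The study sequenced polyA RNA from the RPE, the pigmented layer behind the photoreceptors, of young and aged mice. The Young group had 7 libraries and the Old group 4, both from mice with no vector named in the labels. Old control denotes aged mice given AAV2-tTA (3 libraries), and Old OSK aged mice given AAV2-tTA;TRE-OSK (4 libraries). The vector is an adeno-associated virus. In it, tTA is a transcription activator controlled by tetracycline, TRE is the promoter that tTA drives, and OSK are the reprogramming factors Oct4 (Pou5f1), Sox2 and Klf4. Both vector groups thus carry the transactivator. Ages, strain, sex, dose, time after treatment, the promoter that drives tTA and whether animals were pooled are not given in the sources used here.

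Gsta4 encodes an alpha-class glutathione transferase known for conjugating hydroxynonenal, a toxic aldehyde that forms when membrane lipids are oxidised. The RPE, which takes up shed photoreceptor membranes throughout life under intense light, is a tissue where such lipid oxidation is a recognised burden. The 10 genes that followed it are of several kinds: RNA-binding proteins (Ptbp3, Pabpc1), proteins of epithelial surfaces and junctions (Upk3bl, Perp), calcium-binding S100 proteins (S100a10, S100a16), enzymes (Cmas, Pyroxd1) and signalling or trafficking regulators (Kctd5, Psd4).

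Promoter sequence is shown for 3 of the genes because the genes moved together and these windows hold the letters of sites that were searched for in all promoters of the table. RefSeq promoter windows (GRCm38.p6) were matched for 6 of the 10 genes, namely Cmas, Upk3bl, Kctd5, S100a16, Pyroxd1 and Psd4. The 250 bases before the start that defines each window were searched on both strands. That start is not always the first of the gene. The Upk3bl window ends at 136057266, past gene starts of 136057259 (RefSeq) and 136054492 (GENCODE M21). Windows of Pyroxd1 and Psd4 and the second of S100a16 also end past the gene start. Capitals mark the antioxidant response element core TGACNNNGC in Cmas (chr6:142756436-142756685, plus strand) and S100a16 (chr3:90537004-90537253, plus strand), and the grainyhead core AACNGGTT in Upk3bl (chr5:136057017-136057266, plus strand).
Cmas: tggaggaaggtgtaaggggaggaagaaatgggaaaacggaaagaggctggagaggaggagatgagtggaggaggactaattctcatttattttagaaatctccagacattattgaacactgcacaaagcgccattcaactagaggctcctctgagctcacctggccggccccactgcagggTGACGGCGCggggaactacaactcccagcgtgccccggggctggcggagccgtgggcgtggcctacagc
S100a16: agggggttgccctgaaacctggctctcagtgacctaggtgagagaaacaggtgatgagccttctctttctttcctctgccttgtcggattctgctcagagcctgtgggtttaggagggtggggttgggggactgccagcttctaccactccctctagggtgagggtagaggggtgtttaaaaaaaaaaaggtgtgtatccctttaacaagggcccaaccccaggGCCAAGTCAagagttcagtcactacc
Upk3bl: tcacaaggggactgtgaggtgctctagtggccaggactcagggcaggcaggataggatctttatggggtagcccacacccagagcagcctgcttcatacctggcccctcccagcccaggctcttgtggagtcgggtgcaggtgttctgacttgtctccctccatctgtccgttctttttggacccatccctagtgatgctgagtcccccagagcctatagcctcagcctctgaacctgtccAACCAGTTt
The 6 genes have 9 windows, since S100a16 has 2 and Psd4 has 3. The antioxidant core was present in 2 of the 9 windows, against 10.2% of the 32851 windows in the table. In Cmas its match begins 69 bases before the start and shares its opening 2 letters with a CACCC match on the other strand, and in S100a16 it begins 26 bases before the start and lies on the minus strand. The grainyhead core was found in 1 of the 9 and in 1.79% of all windows. In Upk3bl it lies on the minus strand, so the capitals show its reverse complement. The AP-1 site TGANTCA was found in 1 of the 9 windows (the other S100a16 window; 6.75% of all windows), the GC box GGGCGG in 3 (32.7%), the CACCC box in 6 (52%), the E-box CACGTG in 1 (Pyroxd1; 6.02%) and the TATA box TATAAA in 0 (12.4%). These are matches of letters only.

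Library totals ran from 18104828 to 32348136 counts, and the lowest count of any of the 10 genes in any library was 53. Summed RPE markers, among them Rpe65, Rlbp1, Rgr and Ttr, reached 15700 to 65500 CPM per library, although the defining RPE gene Best1 stood at only 0.4 to 2.57 CPM. Rod markers summed to 17500 CPM in Old control replicate 2 and 14800 in Old OSK replicate 4, against 142 to 7290 in the other 16 libraries. Of the delivered factors, Pou5f1 rose by 6.86 on the log2 scale in Old OSK against Old control (SE 1.34; edgeR quasi-likelihood test, adjusted p = 0.024) and Sox2 by 3.58 (SE 0.5, adjusted p = 0.00343). For Klf4 the log2 difference was 3.43 (SE 0.85, edgeR adjusted p = 0.0631). Klf4 was also high without a named vector: Old replicate 4 had 216 CPM, above the 155 CPM of Old OSK replicate 4, and Old replicate 2 had 69.6 CPM. Pou5f1 lay between 50.1 and 97.4 CPM in all 4 Old OSK libraries and at or below 3.75 CPM in the other 14.

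Centred on group means, r with Gsta4 was 0.992 for Ptbp3, 0.99 for Cmas, 0.983 for Upk3bl, 0.979 for Perp and 0.978 for Kctd5. It was 0.974 for S100a16, 0.974 for Pyroxd1, 0.971 for Psd4, 0.97 for Pabpc1 and 0.968 for S100a10. Just outside lay Rack1, Ncaph2 and Mxd1, each with r of 0.967 or 0.968, so the boundary at the tenth gene separates nearly equal values. Over all 15943 genes the median r was 0.09, and 190 genes had r above 0.9. Among themselves the 10 genes correlated with r of 0.906 to 0.988 over their 45 pairs, Pabpc1 and S100a10 being the least alike.

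Old replicate 4 weighed heavily in this choice and is set apart here. Its Gsta4 level was 2290 CPM, whereas Old replicates 1 to 3 had 448, 1130 and 904. All 10 genes had their highest level of the 14 libraries in it, from 1.63 times the mean of the other Old libraries for Pabpc1 to 4.89 times for Upk3bl. That 1 library contributed between 29.8% (Psd4) and 46.9% (Kctd5) of the within-group sum of squares. Without it, r stayed at 0.942 to 0.985 and 7 of the 10 genes were still among the 10 closest to Gsta4, all 10 within the closest 17. Without the 2 libraries farthest from the median of Gsta4 (Old replicates 1 and 4), r was 0.893 to 0.97 and 3 of the 10 genes ranked among the 10 closest. In the 9 libraries whose names lack an unexplained letter M, r was 0.979 to 0.996, but 973 genes had r above 0.9 there, 3 of the 10 ranked among the 10 closest, and all 10 within the closest 78. In the 7 Young libraries alone, r was 0.847 to 0.963, Ptbp3 and Psd4 ranking 6 and 9 of 15943 genes and Pabpc1 ranking 203. Young replicate 3 was the highest Young library for all 10 genes. Spearman's rho in Young was 0.464 to 1 with a median of 0.911, and 6 of the 10 genes were within the closest 100. It was lowest for Pabpc1 (0.464, rank 2696), Kctd5 (0.607, rank 1435) and Perp (0.75, rank 578).

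**Figure D1:**
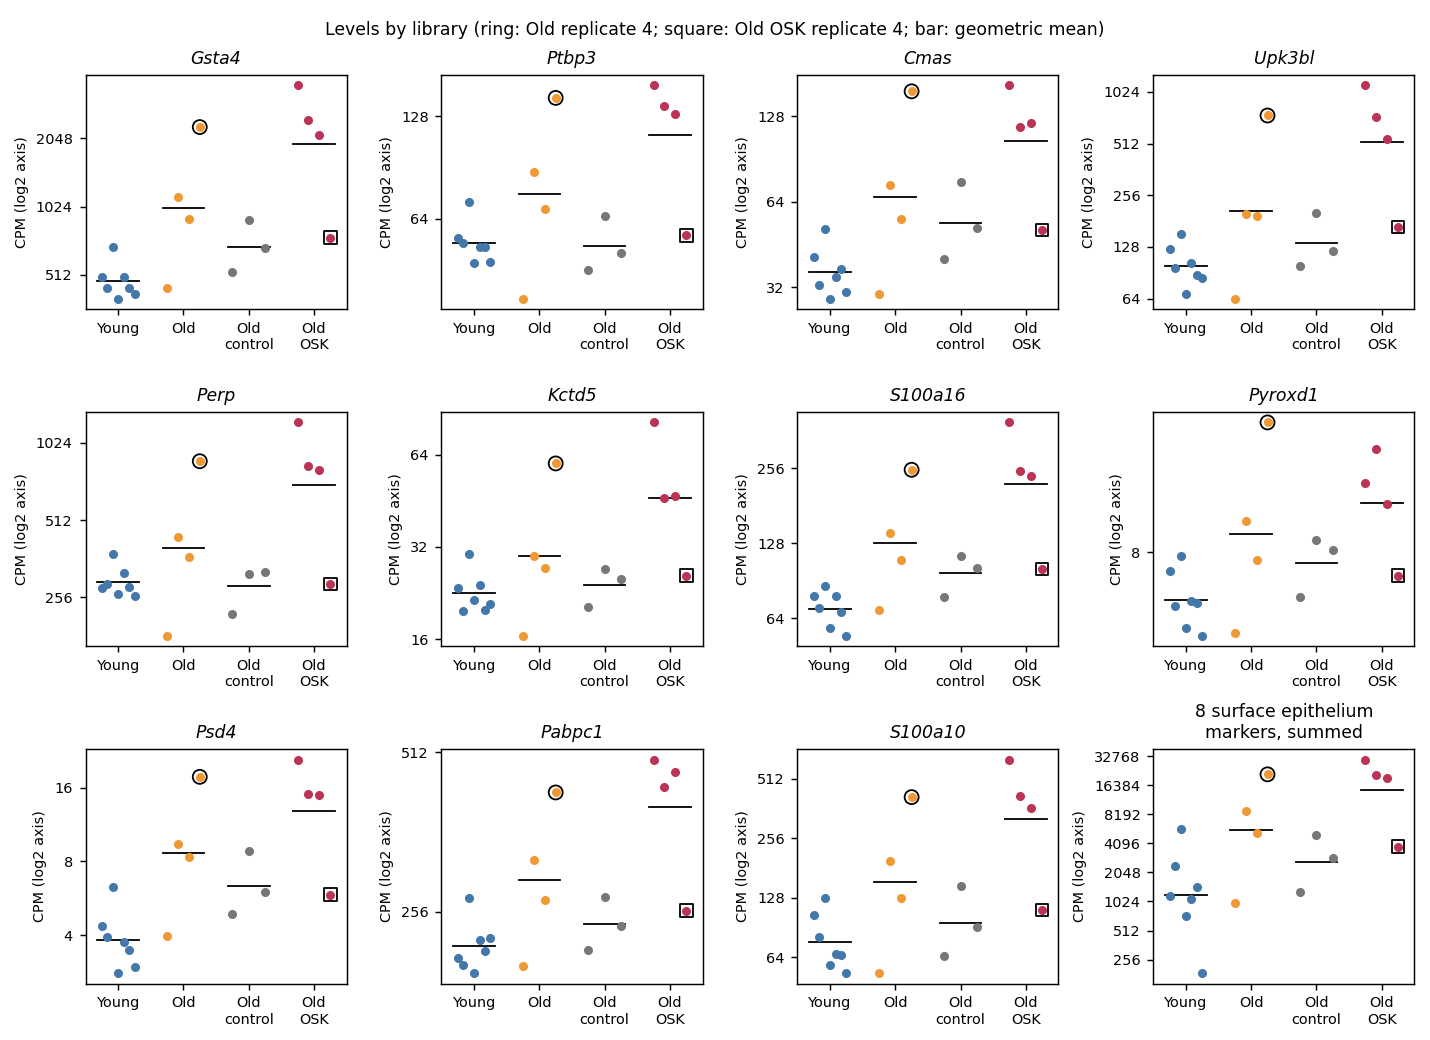
CPM of Gsta4, of the 10 genes and of 8 summed surface epithelium markers, with log2 vertical axes and each group on the horizontal axis. Points are libraries, bars geometric means, the ring Old replicate 4 and the square Old OSK replicate 4, which is the lowest Old OSK library in each of the 11 gene panels.

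Markers of another tissue moved with Gsta4 and with all 10 genes. The 8 surface epithelium markers, which are keratins and other genes of corneal and conjunctival type epithelium (Krt5, Krt14, Krt12, Krt15, Krt6a, Trp63, Aldh3a1, Krt13), were detected in all groups, with none of the 8 at 0 counts throughout. Their summed level was 186 to 5790 CPM in Young, with a median of 1160 and the highest value in Young replicate 3. It was 997, 8810, 5210 and 21200 CPM in Old replicates 1 to 4, 1280, 4990 and 2880 in Old control replicates 1 to 3, and 30100, 20800, 19300 and 3790 in Old OSK replicates 1 to 4. Each of the 3 aged groups had the same order of libraries as Gsta4 had. Over the 14 libraries without OSK, with group means removed, the log2 sum correlated with Gsta4 at r = 0.81 (Spearman's rho 0.83). The mean log2 CPM of the same markers (the surface score) correlated with the 10 genes at 0.746 to 0.889. These correlations describe libraries that share depth and amplification and carry no test. Summed RPE markers ran the other way, with r = -0.61, and rod markers showed r = 0.02. With group means and the surface score both removed, r of the 10 genes with Gsta4 was 0.9 to 0.976, and 6 of them were among the 10 closest. The genes were chosen for high r in these same 14 libraries, so a high r here was likely beforehand and cannot set the score apart. The part of surface epithelium in the results that follow was not tested beyond the values given. In bulk RNA, fewer cells of a type and less RNA per cell cannot be told apart.

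**Figure D2:**
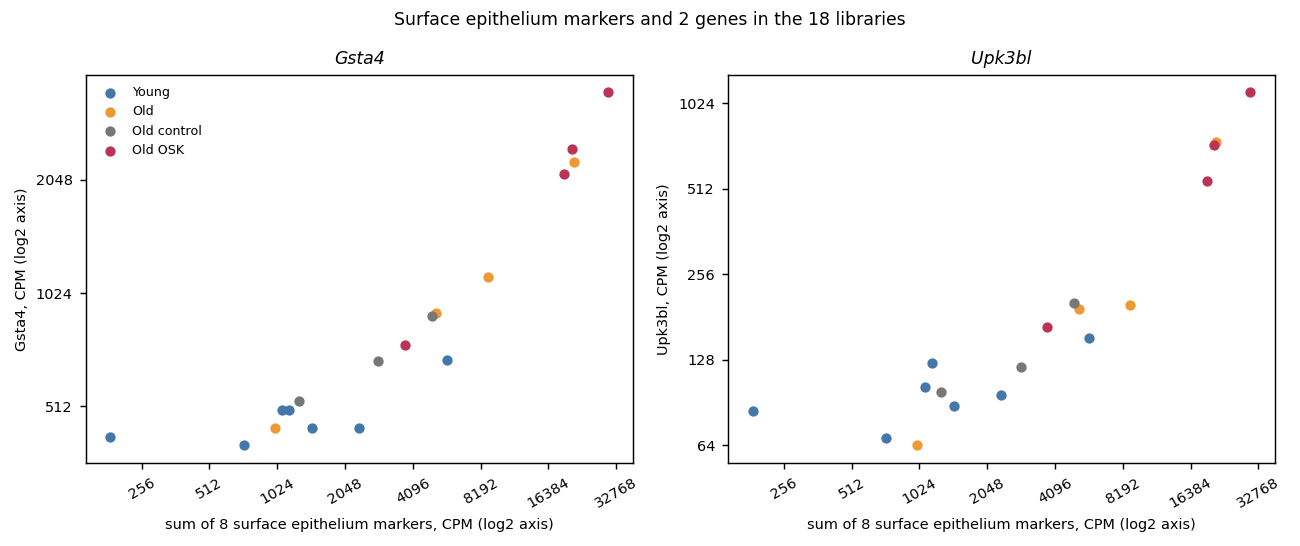
Gsta4 (left) and Upk3bl (right) against the summed level of 8 surface epithelium markers in each of the 18 libraries, all in CPM on log2 axes and coloured by group. The libraries highest in the markers, Old OSK replicates 1 to 3 and Old replicate 4, are also the 4 highest for both genes.

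The first question the OSK libraries allow is whether the 10 genes stood at another level after OSK than after the transactivator alone. The 3 Old control libraries of this contrast are among those that chose the genes, so the test is not fully separate from the choice. Mean levels were higher in Old OSK for all 10, with log2 differences of 0.37 to 2.19 and a median of 1.14, against a median of -0.03 over all genes tested. The median sum of RPE markers was 24900 CPM after OSK, against 53700 CPM after the transactivator alone, with log2 differences of -1.08 for Rpe65 (SE 0.31, edgeR adjusted p = 0.0789), -1.12 for Rdh5 (SE 0.33, adjusted p = 0.082) and -1.39 for Lrat (SE 0.46, adjusted p = 0.0945). The list was not uniform: Tyrp1 and Best1 differed the other way, by 0.5 (SE 0.28) and 0.35 (SE 0.48), while its other markers were lower. The part of the RPE markers in the levels of the 10 genes was not tested. None of the 10 passed the test at an adjusted p of 0.05 (edgeR quasi-likelihood test, Benjamini-Hochberg over 15944 genes), a threshold at which 0.408% of all genes were called higher and 0.728% in either direction. At an adjusted p under 0.1 there were 6 of 10, against 4.42% of all genes, and at an unadjusted p under 0.05 there were 9 of 10, against 13.3% of all genes higher and 26.3% in either direction. Groups overlapped for all 10, since no gene had its 4 Old OSK libraries above the 3 Old control libraries, an arrangement found in 6.55% of genes. Gsta4 itself differed by 1.66 (SE 0.48, adjusted p = 0.0788 in the same edgeR test).

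Whether genes were called depended on 2 libraries, the block and the tool. Without Old OSK replicate 4, 8 of the 10 were called, all but Cmas and Pyroxd1, while 5.65% of all genes were called higher. Without Old control replicate 2, 5 were called (Ptbp3, Upk3bl, S100a16, Pabpc1, S100a10), against 6.25% of all genes. DESeq2 on the same libraries called 7, all but Cmas, Pyroxd1 and Psd4, with 6.56% of all genes. In the 6 libraries numbered 1 to 3, which leave out Old OSK replicate 4 and the other groups, 9 genes were called without a block, all but Pyroxd1, against 5.89% of all genes. With the replicate number as a block in the same 6 libraries 7 of these calls were lost: only Ptbp3 (log2 difference 1.41, SE 0.18, edgeR adjusted p = 0.0468) and Upk3bl (2.5, SE 0.38, adjusted p = 0.0471) were called, against 2.5% of all genes. Fitted with the surface score as a covariate, a setting added after the data were seen, the differences shrank to between -0.09 (Pyroxd1) and 0.74 (Upk3bl) with a median of 0.35, and none was called (edgeR adjusted p 0.725 to 0.983; 0 at an unadjusted p under 0.05).

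The second question is whether the relation to Gsta4 held inside Old OSK. It did for 9 of the 10 genes: their slope on Gsta4 across the 4 Old OSK libraries, in log2 units of the gene per log2 unit of Gsta4, was positive and passed the edgeR test at an adjusted p under 0.05, as did 3.1% of all 15943 genes. The exception was Pyroxd1. Slopes ran from 0.29 for Pyroxd1 to 1.22 for Upk3bl with a median of 0.79, where all genes had a median of 0. Part of the spread in this test comes from the 14 libraries that chose the genes. Fitted on the 4 Old OSK libraries alone, 8 of 10 were called, with Pabpc1 and Pyroxd1 missing, against 5.41% of all genes.

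Old OSK replicate 4 gave most of the range over which these slopes were fitted. It was the lowest Old OSK library for Gsta4 (746 CPM against 3500, 2470 and 2120 in replicates 1 to 3) and for all 10 genes, and it was the lowest for 31.6% of all genes tested. Without it, 0 of 10 passed (edgeR adjusted p 0.664 to 0.99), but 0 of the 15849 genes in that fit had a called positive slope. The slopes over the other 3 libraries were 0.07 to 1.36 with a median of 0.82, against 0.79 with replicate 4, and the median SE was 0.22 against 0.09. At an unadjusted p under 0.05 there were 8 of 10, against 5.46% of all genes. In rank order, Old OSK replicate 1 was the highest for 9 of 10 genes, against 29.6% of all genes, and 6 of 10 had the full order of Gsta4, against 9.45%. Delivered factor levels were also lowest in replicate 4, with 50.1 CPM for Pou5f1 and 70 CPM for Sox2, as were its surface epithelium markers, while its rod markers were the highest of the group. Replicate 4 was also the only Old OSK library with the unexplained letter M in its name, which Old control replicates 2 and 3 share. The slopes were not fitted with M as a covariate, and within Old OSK the letter and replicate 4 cannot be told apart. With the surface score as a covariate and replicate 4 kept, 9 of 10 slopes were called, against 1.98% of genes. Within Old OSK that score fell in the order of Gsta4, at 10.98, 10.46, 10.28 and 7.72 in replicates 1 to 4. The fit thus has little to separate the score from Gsta4 there, and the part of surface epithelium in the slopes was not tested.

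**Figure D3:**
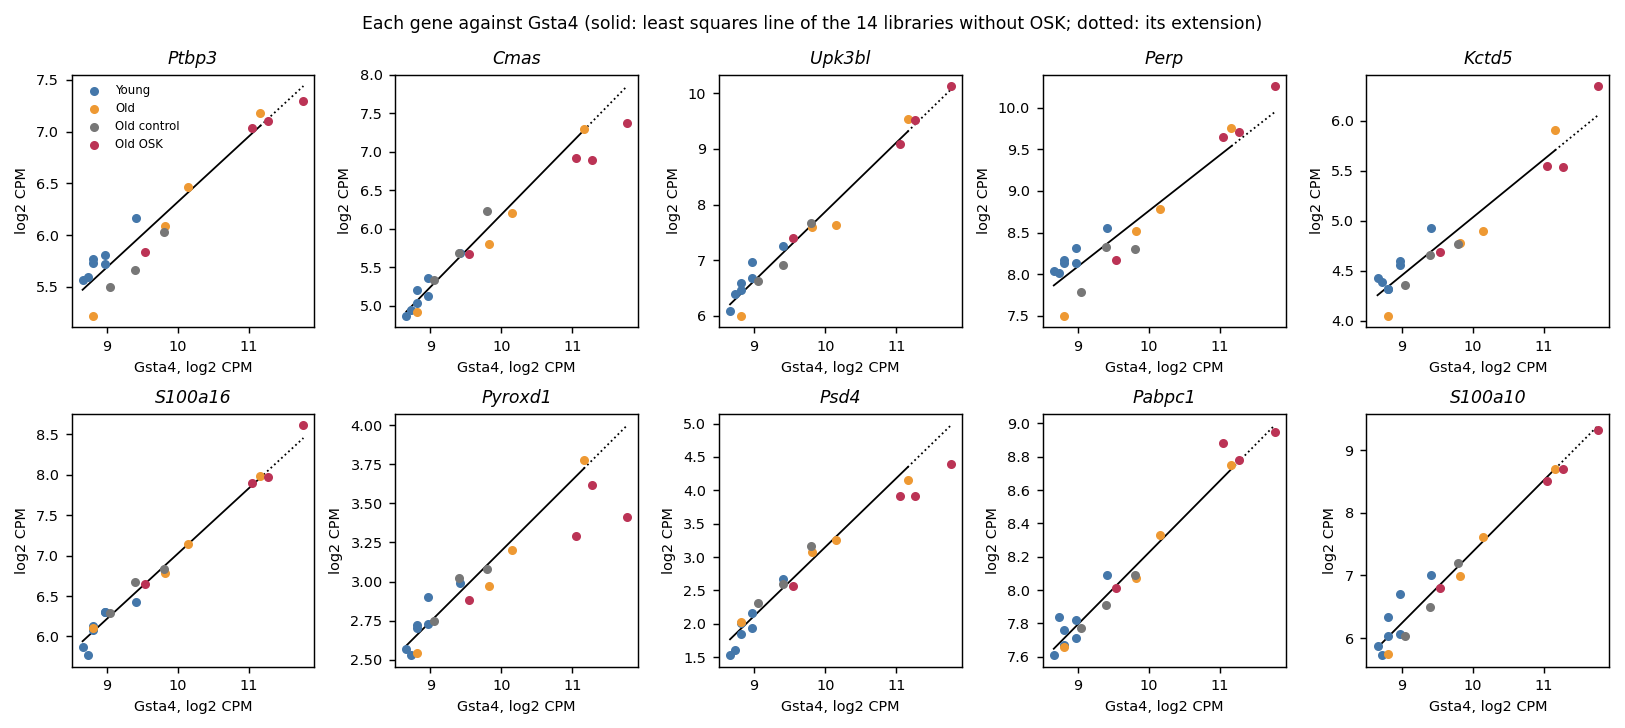
Log2 CPM of each gene against log2 CPM of Gsta4 in the 18 libraries, coloured by group, with the least squares line of the 14 libraries without OSK and its dotted extension. Old OSK points lie along the line for Upk3bl, S100a16 and S100a10 and below it for Cmas, Pyroxd1 and Psd4.

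Ptbp3, a polypyrimidine tract-binding protein that regulates RNA splicing and stability, had the highest r with Gsta4. Its level in Young was 47.6 to 71.6 CPM (median 52.9), and Old replicates 1 to 4 had 37.3, 88.1, 68.2 and 145 CPM. Old control replicates 1 to 3 had 45.2, 65.3 and 50.6 CPM, and Old OSK replicates 1 to 4 had 158, 137, 130 and 57.3 CPM. The first 3 Old OSK libraries stood above every Old control library, and replicate 4 stood between Old control replicates 2 and 3. The log2 difference between these groups was 1.17 (SE 0.36, edgeR adjusted p = 0.0856), and the slope within Old OSK was 0.68 (SE 0.06, adjusted p = 3.8e-05).

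Pabpc1, the main cytoplasmic poly(A)-binding protein, which protects mRNA tails and aids translation, moved over a narrow range. Young libraries had 196 to 272 CPM (median 216), Old 202, 321, 269 and 430 CPM, Old control 217, 273 and 240 CPM, and Old OSK 496, 440, 471 and 257 CPM. Its highest library was only 2.53 times its lowest, the difference between Old OSK and Old control was 0.77 on the log2 scale (SE 0.23, edgeR adjusted p = 0.0831), and the slope was 0.44 (SE 0.07, adjusted p = 0.00226). Relatives and partners of these 2 proteins (16 of 16 tested, among them Ptbp1, Ptbp2, Pabpc4 and Pabpn1) had a median log2 difference of -0.05. None of them was called by edgeR in the contrast, where 4 had an unadjusted p under 0.05 (26.3% of all genes) and DESeq2 called 1 higher (6.56%). None was called in the slope either, where both counts were 0. Eif4b, a translation initiation factor, had the lowest p of them with a log2 difference of 0.41 (SE 0.12, edgeR adjusted p = 0.0788), and Ptbp1 differed by -0.01 (SE 0.1).

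Upk3bl, a uroplakin-like membrane protein, had the widest range, its highest library being 17.6 times its lowest. Young libraries lay between 68 and 153 CPM (median 96.3), Old libraries at 64, 200, 194 and 746 CPM, and Old control at 98.5, 203 and 121 CPM. In Old OSK the values were 1120, 733, 546 and 167 CPM. All 4 Old OSK libraries exceeded all 7 Young libraries, which held for 2 of the 10 genes (Upk3bl and S100a16) and for 12.6% of all genes. Replicate 4 was nevertheless below Old control replicate 2. The log2 difference from Old control was 2.19 (SE 0.67, edgeR adjusted p = 0.0856) and the slope 1.22 (SE 0.1, adjusted p = 3.8e-05). Of 5 uroplakins 4 were tested, and edgeR called none in the contrast. An unadjusted p under 0.05 was found for 1 of them (26.3% of all genes), and DESeq2 called 1 higher (6.56% of all genes). Upk1b had a log2 difference of 2.47 (SE 0.9, edgeR adjusted p = 0.114) and the only slope of the list that edgeR called, 1.49 (SE 0.34, adjusted p = 0.0262). DESeq2 called 1 positive slope in the list, against 6.8% of all genes. Upk3b, the gene closest in name, differed by 0.34 (SE 0.45), and r with Gsta4 in the 14 libraries was -0.75 for it.

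Perp, a membrane protein of desmosomes that p53 and p63 induce, had 258 to 377 CPM in Young (median 280). Old libraries had 181, 439, 368 and 868 CPM, Old control 221, 315 and 322 CPM, and Old OSK 1230, 835, 805 and 288 CPM. Old OSK replicate 4 lay inside the Old control range, and Perp was the only one of the 10 whose Old control order differed from that of Gsta4. The log2 difference was 1.46 (SE 0.44, edgeR adjusted p = 0.0838) and the slope 0.93 (SE 0.08, adjusted p = 3.8e-05).

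Genes of desmosomes and epithelial junctions, among which Perp acts, were described as a list of their own. Of 14 tested none was called by edgeR in Old OSK against Old control, 10 had an unadjusted p under 0.05 (26.3% of all genes), DESeq2 called 4 higher (6.56% of all genes), and their median log2 difference was 2.01. Desmoplakin (Dsp), which anchors keratin filaments, differed by 1.74 (SE 0.54, edgeR adjusted p = 0.0859), plakoglobin (Jup) by 2.2 (SE 0.7, adjusted p = 0.0891) and the claudin Cldn7 by 2.3 (SE 0.85, adjusted p = 0.115). Positive slopes on Gsta4 within Old OSK were called by edgeR for 4 of the 14, namely Dsp, Jup, Cldn7 and Tjp1 (3.1% of all genes). DESeq2 called 7 (6.8% of all genes). In edgeR 9 had an unadjusted p under 0.05, against 15.6% of all genes. Cdh3, a cadherin that RPE itself expresses, differed by -0.7 (SE 0.33, edgeR adjusted p = 0.19). Surface epithelium also expresses desmosome and junction genes. The order of libraries in its summed markers, given above, was that of Gsta4 in each aged group, an order that 9.45% of all genes had in Old OSK. The part of surface epithelium in the differences of these genes was not tested. With the surface score as a covariate, 1 of the 14 had an unadjusted p under 0.05 in the contrast, against 7.16% of all genes.

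The p53 targets on the other side of Perp were less uniform. Of 12 tested none was called by edgeR, and 4 had an unadjusted p under 0.05, where 26.3% of all genes did. DESeq2 called 2 higher (6.56% of all genes), and the median log2 difference was 0.26. Phlda3, an inhibitor of Akt signalling, differed by 1.49 (SE 0.36, edgeR adjusted p = 0.0594), the cell cycle inhibitor Cdkn1a by 2.02 (SE 0.57, adjusted p = 0.076) and the apoptosis gene Bax by 0.33 (SE 0.13, adjusted p = 0.13). None of the 12 had a called slope on Gsta4 in edgeR (1 at an unadjusted p under 0.05), and DESeq2 called 1 positive slope, against 6.8% of all genes.

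S100a10, the S100 protein that binds annexin A2 and links it to membranes and the cytoskeleton, had 53.2 to 128 CPM in Young (median 66.5). Old libraries had 53.2, 196, 127 and 413 CPM, Old control 65.2, 147 and 90.5 CPM, and Old OSK 639, 416, 363 and 111 CPM. Its highest library was 12 times its lowest. The log2 difference was 1.92 (SE 0.6, edgeR adjusted p = 0.0886), and the slope of 1.13 (SE 0.12, adjusted p = 0.00022) was the second steepest.

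S100a16, a widely expressed calcium-binding relative, had 54.5 to 86.4 CPM in Young (median 70.2), 69, 141, 110 and 252 CPM in Old and 78.2, 114 and 102 CPM in Old control. Old OSK libraries had 390, 250, 239 and 101 CPM. Replicate 4 was again within the Old control range, but above every Young library. The log2 difference was 1.32 (SE 0.4, edgeR adjusted p = 0.0838) and the slope 0.85 (SE 0.08, adjusted p = 3.8e-05).

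Other S100 proteins and annexin partners had a median log2 difference of 2.01 over 13 of 14 tested, with none called by edgeR. Of the 13, 8 had an unadjusted p under 0.05 (26.3% of all genes), and DESeq2 called 4 higher (6.56% of all genes). Anxa2, the partner of S100a10, differed by 2.03 (SE 0.7, edgeR adjusted p = 0.101) and had the only slope of the list that edgeR called, 1.03 (SE 0.26, adjusted p = 0.0425). DESeq2 called 7 positive slopes in the list (6.8% of all genes), and 8 had an unadjusted p under 0.05 in edgeR (15.6% of all genes). With the surface score as a covariate, 2 of the 13 had an unadjusted p under 0.05 in the contrast, against 7.16% of all genes. The scaffold gene Ahnak, whose protein binds the S100a10 and annexin A2 complex, differed by 1.76 (SE 0.55, edgeR adjusted p = 0.0886) and S100a6 by 2.48 (SE 0.89, adjusted p = 0.111). S100a1, S100a13 and S100b, by contrast, differed by -0.29, 0.19 and 0.17, each by less than 2 SE, and had negative r with Gsta4 in the 14 libraries.

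Cmas, the enzyme that activates sialic acid as its CMP sugar in the nucleus, was at 29.2 to 51.5 CPM in Young (median 34.9). Old libraries had 30.2, 73.2, 55.8 and 157 CPM and Old control 40.2, 75.2 and 51.6 CPM. In Old OSK the values were 165, 118, 121 and 50.9 CPM, so that replicate 4 fell between Old control replicates 1 and 3. The log2 difference was 1.03 (SE 0.44, edgeR adjusted p = 0.152) and the slope 0.75 (SE 0.07, adjusted p = 3.8e-05).

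The rest of the sialic acid pathway did not move as a block. Of 16 genes tested (of 17) none was called by edgeR in the contrast, 4 had an unadjusted p under 0.05 (26.3% of all genes), and the median log2 difference was -0.18. DESeq2 called 1 lower, a direction for which the share of all genes was not counted. Sialyltransferase St3gal1 differed by -0.98 (SE 0.26, edgeR adjusted p = 0.0708), St3gal3 by -0.56 (SE 0.19, adjusted p = 0.103) and St3gal6 by -0.66 (SE 0.23, adjusted p = 0.108). Nans, the synthase that acts upstream of Cmas, differed by 0.62 (SE 0.23, edgeR adjusted p = 0.114). Nans and Slc35a1, the transporter that carries the product of Cmas into the Golgi, had the 2 slopes of the list that edgeR called, 0.4 (SE 0.1, adjusted p = 0.0349) and 0.4 (SE 0.08, adjusted p = 0.011).

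Pyroxd1, a pyridine nucleotide-disulfide oxidoreductase that protects the tRNA ligase complex from oxidation, was the gene that followed Gsta4 least in Old OSK. It had 5.68 to 7.87 CPM in Young (median 6.5), 5.75, 9.09, 7.75 and 13.6 CPM in Old, 6.66, 8.39 and 8.06 CPM in Old control, and 10.6, 12.2, 9.73 and 7.26 CPM in Old OSK. Old replicate 4, not an Old OSK library, held its highest level, and Old OSK replicate 2 exceeded replicate 1. Its log2 difference was 0.37 (SE 0.24, edgeR adjusted p = 0.354) and its slope 0.29 (SE 0.1, adjusted p = 0.153), while the slope was 0.53 in the 14 libraries (SE 0.09). The difference between these slopes was not tested. DESeq2 gave the Old OSK slope an adjusted p of 0.0413. Genes of the tRNA ligase complex and of other disulfide oxidoreductases (11 tested) had a median log2 difference of 0, with none called by edgeR in contrast or slope. At an unadjusted p under 0.05 there were 2 in the contrast (26.3% of all genes) and 0 in the slope (15.6%). DESeq2 called 1 higher in the contrast (6.56% of all genes) and 0 in the slope. Rtcb, the ligase subunit that Pyroxd1 protects, differed by 0.3 (SE 0.09, edgeR adjusted p = 0.0805), Fam98a of the same complex by 0.31 (SE 0.13, adjusted p = 0.139) and the thioredoxin reductase Txnrd2 by -0.2 (SE 0.17, adjusted p = 0.492).

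Kctd5 encodes a BTB-domain adaptor of cullin 3 ubiquitin ligases that acts on G protein beta-gamma subunits. It stood at 19.8 to 30.4 CPM in Young (median 21.5), at 16.4, 29.8, 27.3 and 60 CPM in Old, at 20.4, 27.1 and 25.2 CPM in Old control and at 81.7, 46.4, 46.8 and 25.8 CPM in Old OSK. Replicate 1 stood apart within Old OSK, and replicate 4 was inside the Old control range. The log2 difference was 1.05 (SE 0.37, edgeR adjusted p = 0.105) and the slope 0.68 (SE 0.09, adjusted p = 0.000804). In the list of related KCTD genes, cullin 3 and its targets, none of 10 was called by edgeR in the contrast, and the median log2 difference was 0.06. Of the 10, 4 had an unadjusted p under 0.05 (26.3% of all genes). DESeq2 called 1 higher (6.56% of all genes) and 1 lower, a direction for which that share was not counted. Kctd2, the nearest paralog of Kctd5, differed by -0.78 (SE 0.22, edgeR adjusted p = 0.0788), Kctd9 by 0.62 (SE 0.19, adjusted p = 0.0841) and Kctd17 by 0.42 (SE 0.15, adjusted p = 0.106). No slope of this list was called by edgeR or DESeq2, with 5 at an unadjusted p under 0.05, against 15.6% of all genes.

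Psd4, an exchange factor that activates the small GTPase Arf6 at the plasma membrane, was at 2.81 to 6.28 CPM in Young (median 3.76). Old libraries had 3.98, 9.46, 8.38 and 17.7 CPM, Old control 4.88, 8.83 and 5.99 CPM, and Old OSK 20.8, 15.1, 14.9 and 5.86 CPM. As with the other genes, Old OSK replicate 4 lay inside the Old control range. The log2 difference was 1.11 (SE 0.45, edgeR adjusted p = 0.137) and the slope 0.82 (SE 0.12, adjusted p = 0.00136). In a list of 11 genes, Arf6 itself and other exchange factors, none was called by edgeR in either test. In the contrast 2 had an unadjusted p under 0.05 (26.3% of all genes), and the median log2 difference was -0.1. DESeq2 called 2 lower, a direction for which the share of all genes was not counted. In the slope both counts were 0. Psd3, a paralog, differed by -0.72 (SE 0.22, edgeR adjusted p = 0.0832), Iqsec1 by -0.69 (SE 0.21, adjusted p = 0.0856) and Fbxo8 by -0.23 (SE 0.11, adjusted p = 0.206).

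**Figure D4:**
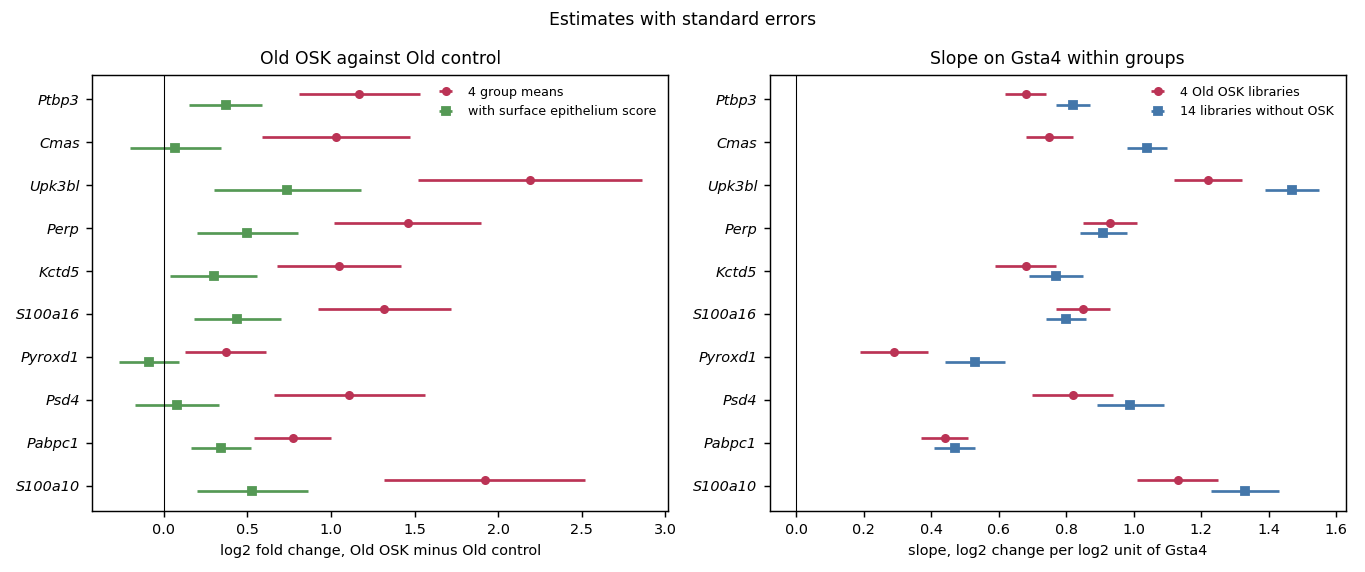
Left, log2 differences between Old OSK and Old control with standard errors (bars), from the fit of 4 group means and from the fit with the surface epithelium score. Right, slopes on Gsta4 with standard errors within Old OSK and within the 14 other libraries; all 10 slopes are above 0 in both, and Pyroxd1 has the lowest slope in Old OSK.

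Placing the Old OSK libraries against the least squares line of the other 14 shows whether they kept the same proportion to Gsta4. Gsta4 in 2 Old OSK libraries (replicates 1 and 2) exceeded the highest value of the 14, so those points lie on an extension of the line. The line was fitted with group means left in, whereas the genes were selected with group means removed. The residual SD is lowered by that selection in the same libraries but also holds differences between groups. With group means left in, Perp, Ptbp3 and Kctd5 ranked only 353, 159 and 158 by r. The residual SD ran from 0.08 (Pabpc1) to 0.25 (S100a10), so distances in SD units are not alike between genes and are a description. Of the 40 gene and library combinations, 24 were within 1 residual SD of the line and 32 within 2. Cmas lay below the line in all 4 Old OSK libraries, at -0.48, -0.5, -0.25 and -0.08 log2 units in replicates 1 to 4, against a residual SD of 0.13. Psd4 was at -0.6, -0.54, -0.33 and -0.11 (residual SD 0.16), and Pyroxd1 at -0.59, -0.15, -0.38 and -0.12 (residual SD 0.09). S100a10 was also below in all 4, with -0.13 as the lowest value and a residual SD of 0.25. For the other 6 genes the mean of the 4 differences lay between -0.08 and 0.08. Drawn without Old replicate 4, the line moved that mean to 0.32 for Upk3bl, 0.36 for Perp and 0.23 for Kctd5, and to -0.3 for Cmas, -0.64 for Psd4 and -0.24 for Pyroxd1.

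Across age the libraries that chose the genes can only be described. Mean levels were higher in Old than in Young by 0.46 (Pyroxd1, SE 0.19; Pabpc1, SE 0.18) to 1.55 (Upk3bl, SE 0.5) on the log2 scale, with a median of 0.84 and a median of 0 over all genes. Without Old replicate 4 the median was 0.39, with values from 0.1 (Kctd5) to 0.88 (Psd4). For no gene did all 4 Old libraries exceed all 7 Young libraries, an arrangement seen in 3.69% of genes, and Old replicate 1 lay within or below the Young range for all 10. Without Old replicate 4, the Old mean of Ptbp3 was 64.5 ± 25.6 CPM (SD, n = 3) against 54.8 ± 8.09 in Young (SD, n = 7), and that of Upk3bl was 153 ± 76.8 CPM (SD, n = 3) against 103 ± 28.5 (SD, n = 7). With the surface score as a covariate the median difference was -0.03, with Ptbp3, Upk3bl, Perp, Kctd5 and S100a10 below 0. Old control levels were lower than Old levels for all 10 genes, with log2 differences of -1.1 (Upk3bl) to -0.24 (Pyroxd1) and a median of -0.57. Over all genes the median was 0.04, and 57.4% of the differences were above 0. Without Old replicate 4 the median of the 10 genes was -0.12, and Cmas (0.07, SE 0.37) and Pyroxd1 (0.03, SE 0.21) changed sign. Old replicate 1 lay below all 3 Old control libraries for all 10 genes. The share of all genes with that arrangement was not counted, and the 10 were chosen for moving together. The 3 comparisons share the Old and Old control libraries.

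In position the 10 genes were mostly scattered, on chromosomes 2, 3, 4, 5, 6, 10, 15 and 17 of GRCm38 (GENCODE M21), with Gsta4 on chromosome 9. Pyroxd1 (chr6:142345654-142363257, plus strand) and Cmas (chr6:142756686-142775714, plus strand) lie 393 kb apart. None of the 6 protein-coding genes between them ranked near Gsta4: their r in the 14 libraries was 0.13 for Golt1b, -0.25 for Spx, 0.48 for Gys2, -0.45 for Ldhb, -0.58 for Kcnj8 and 0.3 for Abcc9. Pyroxd1 overlaps Recql on the opposite strand, and the kit named in the labels does not mark strand, so reads of the overlap cannot be told apart. Recql had r = -0.3 and differed by -0.02 (SE 0.14) between Old OSK and Old control. S100a10 (chr3:93555080-93564643) and S100a16 (chr3:90537254-90543151) share a chromosome but lie 3012 kb apart with 70 protein-coding genes between them.

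Other genes could be named as alike by rules on the same measure. Over all 18 libraries, the mean of the 10 genes' standardised levels correlated most with Gsta4 (r = 0.992), followed by Coro1c (0.987) and Arpc2 (0.986), both regulators of the actin cytoskeleton, and by Rplp0 (0.986), a ribosomal stalk protein. In the 13 libraries without Old replicate 4 and with no group means removed, the 5 genes closest to Gsta4 were Psd4 (0.975), S100a16 (0.966), Junb (0.961), Cmas (0.961) and Lyn (0.96). With group means left in over all 14 libraries, 4 of the 10 genes ranked among the 10 closest, and Kifc3 (0.969), Upk3bl (0.969) and Mfsd6 (0.967) came next below the tenth.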

How the data were processed

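The deposited values are raw read counts in 1 gene table that covers 18 RPE libraries. Per the labels' protocols, polyA RNA was amplified with SMART-Seq v4 and libraries were built with Nextera XT. STAR 2.7.1a and featureCounts 1.6.2, and mouse (GRCm38, mm10) and human builds, are named without roles in the submitters' processing notes; annotation, strand setting and handling of reads with several matches are not given in the sources used here, so near-identical copies of a gene may share reads. Gene names came from the table.

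Genes were kept by edgeR's filterByExpr (edgeR 4.0.16 in R 4.3.3) at a minimum count of 10 and a total of 15. Counts were scaled by TMM and fitted with glmQLFit and glmQLFTest over all 18 libraries and 4 group means. The slope model added Gsta4, centred within groups, as 1 covariate for Old OSK and 1 for the other 14 libraries. P-values were adjusted by Benjamini-Hochberg over all genes tested, and a gene was called at 0.05. Log2 CPM used a prior count of 2. DESeq2 1.42.0 was an alternative. The scripts were tested on simulated data.

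The genes and gene lists were chosen with earlier results of these data known. Named genes were Gsta4, the 10 genes, the delivered factors, the genes next in rank, those most like the 10, and up to 3 genes of lowest p in each list. Some others were named after their values were seen: Cdh3, Tjp1, Ptbp1, S100a1, S100a13, S100b, Nans, Slc35a1 and the chromosomal neighbours. Groups came from titles. Nothing in the labels says that libraries are separate animals, so p-values measure the spread between these samples, which may be technical. For replicate numbers 1, 2 and 3, deviations in Old OSK had r of 0.103, 0.421 and 0.339 with those in Old control. Values between Old control and Old were 0.197, -0.189 and 0.359. Between Old and Young they were -0.05, -0.019, 0.144 and -0.193 for numbers 1 to 4. The replicate number was a block only in the alternative fit of the 6 libraries numbered 1 to 3. The reported fits hold no such term, and no label says what the numbers mark. An unexplained letter M stands in the names of Young replicates 5 to 7, Old control replicates 2 and 3 and Old OSK replicate 4. It was tried as a covariate in the contrasts but not in the slope model.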

Additional observations from a re-analysis of the deposited data

Results flagged for a closer look

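In the 7 Young libraries, replicate 3 stood apart from the others for 4 of the 11 genes, its gap to the next library being larger than Dixon's critical share of the group's range. The levels were 679 CPM for Gsta4, 71.6 CPM for Ptbp3, 30.4 CPM for Kctd5 and 272 CPM for Pabpc1, with gaps of 0.642, 0.641, 0.592 and 0.575 of the range. The check covered 33 gene and group combinations, and chance alone marks about 1 in 20. All 4 marks come from 1 library and from genes chosen for moving together, so they count as 1 observation. Young replicate 3 was also the Young library with the highest surface epithelium markers (5790 CPM against 186 to 2360 in the other 6), and the part of these markers in the levels was not tested.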

How the results depend on the processing

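Of the 10 genes, 0 were called higher in Old OSK than in Old control in the reported fit, with median-ratio size factors, without the low-count filter, with a mean of at least 50 counts, in the 2 groups alone and with the letter M as a covariate. DESeq2 called 7. Leaving out 1 library at a time gave 0 to 8. In the 6 libraries numbered 1 to 3, 9 were called unblocked and 2 with the replicate block (Ptbp3, Upk3bl), so that the block ended 7 calls there; the cause was not tested. The surface score as a covariate moved the median log2 difference to 0.35, turned Pyroxd1 to -0.09, and turned the median difference of Old from Young to -0.03, with Ptbp3 at -0.17, Upk3bl at -0.08, Perp at -0.3, Kctd5 at -0.19 and S100a10 at -0.11. With it, 3 of 12 p53 targets had an unadjusted edgeR p under 0.05 in Old OSK against Old control. So did 2 of 16 relatives of Ptbp3 and Pabpc1, 2 of 11 genes of the tRNA ligase list and 1 of 16 of the sialic acid pathway. The uroplakin, KCTD and Arf6 lists had 0, against 7.16% of all genes.

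The 9 called slopes within Old OSK (3.1% of all genes) became 8 in that group alone (5.41%), 10 with DESeq2 (6.8%) and 0 to 9 when 1 library was left out. Leaving out Old OSK replicate 4 (0 called; 0 positive slopes were called among all genes there) removes the lowest Gsta4 level, 746 CPM, and leaves 2120 to 3500 CPM. The count of these genes among the 10 closest to Gsta4 was 4 with group means left in, 10 with group means removed, and, with group means left in, 2 by Spearman's rho and 1 on linear CPM; Spearman's rho with group means removed gave 6. Leaving out 1 library gave 3 to 6 with group means left in and 6 to 10 with them removed. The lowest count behind any of these values was 53.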
